A study of Mus musculus with 31 samples.

Results

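A set of 10 genes of the macrophage lineage was followed through 31 mouse RNA-seq libraries: Csf1r, Emr1, C1qa, C1qb, C1qc, Cd68, Mrc1, Cd163, Clec5a and Cd14. They were chosen by name, and all 10 of 10 were present among the 20314 genes of the deposited tables. The groups of interest were blood cells made in culture, sorted on day 3, and endothelium taken from embryos at E11.5. The series compared lines of "expandable hemangioblasts" (eHB), progenitors of blood and endothelium, and their progeny with control cells.

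The 5 eHB lines were grown in 2 µg/mL doxycycline and 12.5 ng/mL FGF2. Embryonic stem (ES) cells were the source of RB3.6.5 and of RB4.6.9, which also received VEGF, BMP4, a cyclic AMP analogue and SB431542, line M5 came from embryonic fibroblasts, and lines FL4 and FL10 came from fetal liver. From what is known of the study, and not from its labels, eHB cells carry transcription factor transgenes that doxycycline switches on, so every progeny library shares them. Endothelial cultures (n = 5, 1 per line) were kept for 3 days, with no doxycycline listed, in VEGF (20 ng/mL), BMP4 (20 ng/mL), FGF2 (12.5 ng/mL), the cyclic AMP analogue and SB431542, and were not sorted. Blood cultures, also with no doxycycline listed, were kept in 3 µM CHIR99021 with SCF, IL-3 and Flt3L (100 ng/mL each) under 1.5% oxygen. Blood cells were sorted as VE-cadherin+ CD45- on day 2 (n = 5) and as VE-cadherin+ CD45+ on day 3 (n = 5), 1 library per line, so the day and the gate change together and cannot be told apart. Primary endothelium was sorted as VE-cadherin+ Pecam1+ from E11.5 yolk sac (n = 2) and from E11.5 embryos (n = 2) and lysed without culture. The labels state no CD45 gate for it and do not say whether the libraries of a group came from separate animals, so p-values may measure only technical spread there. Fetal hematopoietic stem cells (HSC, E14.5, CD45+ CD201+ CD150+ CD48-, n = 1) were also uncultured. ES cells (n = 3) were grown with 3 µM CHIR99021, PD0325901 and LIF, and Kdr-positive mesoderm (n = 3) was derived from the same 3 ES lines with Activin A, CHIR99021, BMP4 and FGF2.

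Macrophages are phagocytes that arise first in the yolk sac and later from hematopoietic stem cells, and they settle in embryonic tissues beside the vessels. Most depend on CSF1R, the receptor tyrosine kinase for CSF1 and IL-34. C1q, the recognition molecule that starts the classical complement pathway, is assembled from the products of 3 genes and is made largely by tissue macrophages. CLEC5A and CD14 are more typical of monocytes and other myeloid cells, and the mannose receptor MRC1 is also made by some endothelial cells.

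The libraries held 9424412 to 79497758 expected counts each, and day 3 blood was the shallowest group (9424412 to 26651901). Levels are given in TPM (a level scaled by transcript length and library total). The summed TPM of 12 endothelial genes was 7671 to 9977 in primary endothelium and 8320 to 11132 in endothelial cultures, against 270.2 to 795.6 in day 3 blood. Endothelial Cdh5, which encodes the VE-cadherin used in the sorts, was at 1079 to 1826 TPM in the 4 primary libraries. Day 3 blood of line M5 stood apart: 40 macrophage genes outside the 10 summed to 14493 TPM in it and to 2386 to 4007 in the other 4 lines. The 13 neutrophil genes summed to 28543 TPM in M5 and to 1498 to 3610 in the other 4. For the 10 genes, called differences of day 3 blood are therefore also given without M5 where that moves them by more than 1.5 times. Means and fold changes of other genes in day 3 blood are given with M5 only.

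The C1q genes lie side by side on the minus strand of chromosome 4 (GRCm38, GENCODE): C1qb at 136880129 to 136886187, C1qc at 136889804 to 136893065 and C1qa at 136895917 to 136898803, each with 3 exons. Cd68 lies on chromosome 11 (69664213 to 69666153, 6 exons), Mrc1 on chromosome 2 (14229392 to 14332057, 30 exons) and Emr1, annotated as Adgre1, on chromosome 17 (57358691 to 57483527, 22 exons). Clec5a (40574894 to 40585821) and Cd163 (124304656 to 124330527) are on chromosome 6. The positions of Csf1r and Cd14 are not given here. All are protein-coding, and no exon of any of the 10 overlaps an exon of another gene.

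The genes moved in sets that shared groups of libraries, so their promoters were read for the core motif of PU.1 (GAGGAA), the myeloid factor encoded by Spi1, and for a C/EBP motif (TTGCNNAA), both on either strand. RefSeq windows of 250 bases before to 50 after the start (GRCm38.p6) were found for 6 of the 10 genes: C1qb, C1qc, Cd68, Mrc1, Cd163 and Clec5a. The part upstream of every annotated start is printed 5′ to 3′ for the 5 that held a match, with the matches in capitals.
C1qb, chr4:136886201-136886450, strand -: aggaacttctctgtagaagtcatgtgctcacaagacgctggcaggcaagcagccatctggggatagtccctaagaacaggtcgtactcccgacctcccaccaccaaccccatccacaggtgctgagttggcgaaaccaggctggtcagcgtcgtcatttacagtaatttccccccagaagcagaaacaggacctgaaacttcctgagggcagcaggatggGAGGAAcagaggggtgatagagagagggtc
C1qc, chr4:136893066-136893164, strand -: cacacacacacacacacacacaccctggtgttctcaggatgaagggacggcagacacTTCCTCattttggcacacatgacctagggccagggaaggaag
Cd68, chr11:69666171-69666420, strand -: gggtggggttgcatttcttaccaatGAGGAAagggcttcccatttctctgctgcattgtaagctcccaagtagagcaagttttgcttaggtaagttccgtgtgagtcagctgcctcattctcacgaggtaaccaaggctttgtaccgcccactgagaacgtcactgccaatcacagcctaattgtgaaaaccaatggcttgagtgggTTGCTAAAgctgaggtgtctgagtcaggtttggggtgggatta
Mrc1, chr2:14229164-14229391, strand +: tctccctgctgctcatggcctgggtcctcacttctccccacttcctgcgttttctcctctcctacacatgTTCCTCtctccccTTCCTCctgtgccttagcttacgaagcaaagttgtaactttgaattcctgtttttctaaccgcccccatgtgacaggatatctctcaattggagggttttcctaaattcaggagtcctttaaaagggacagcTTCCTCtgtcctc
Clec5a, chr6:40585822-40586055, strand -: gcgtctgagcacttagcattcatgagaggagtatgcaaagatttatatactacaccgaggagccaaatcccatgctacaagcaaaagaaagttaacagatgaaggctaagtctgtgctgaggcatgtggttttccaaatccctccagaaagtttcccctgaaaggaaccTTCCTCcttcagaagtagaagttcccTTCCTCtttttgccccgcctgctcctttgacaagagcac
GAGGAA or its reverse complement TTCCTC occurred once in C1qb (first base at -30 from the start) and once in C1qc (-193). It occurred 2 times in Cd68 (-225 and, beyond the printed stretch, 29), 2 times in Clec5a (-81 and -55) and 3 times in Mrc1 (-180, -167 and -35). TTGCNNAA occurred in Cd68 only (-43), where it overlapped no GAGGAA match. The Cd163 window held neither. Of all 32851 windows of 300 bases, 28.3% held GAGGAA and 10.8% held TTGCNNAA on either strand, so a match here is a description of the sequence and not a binding site.

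**Figure D1:**
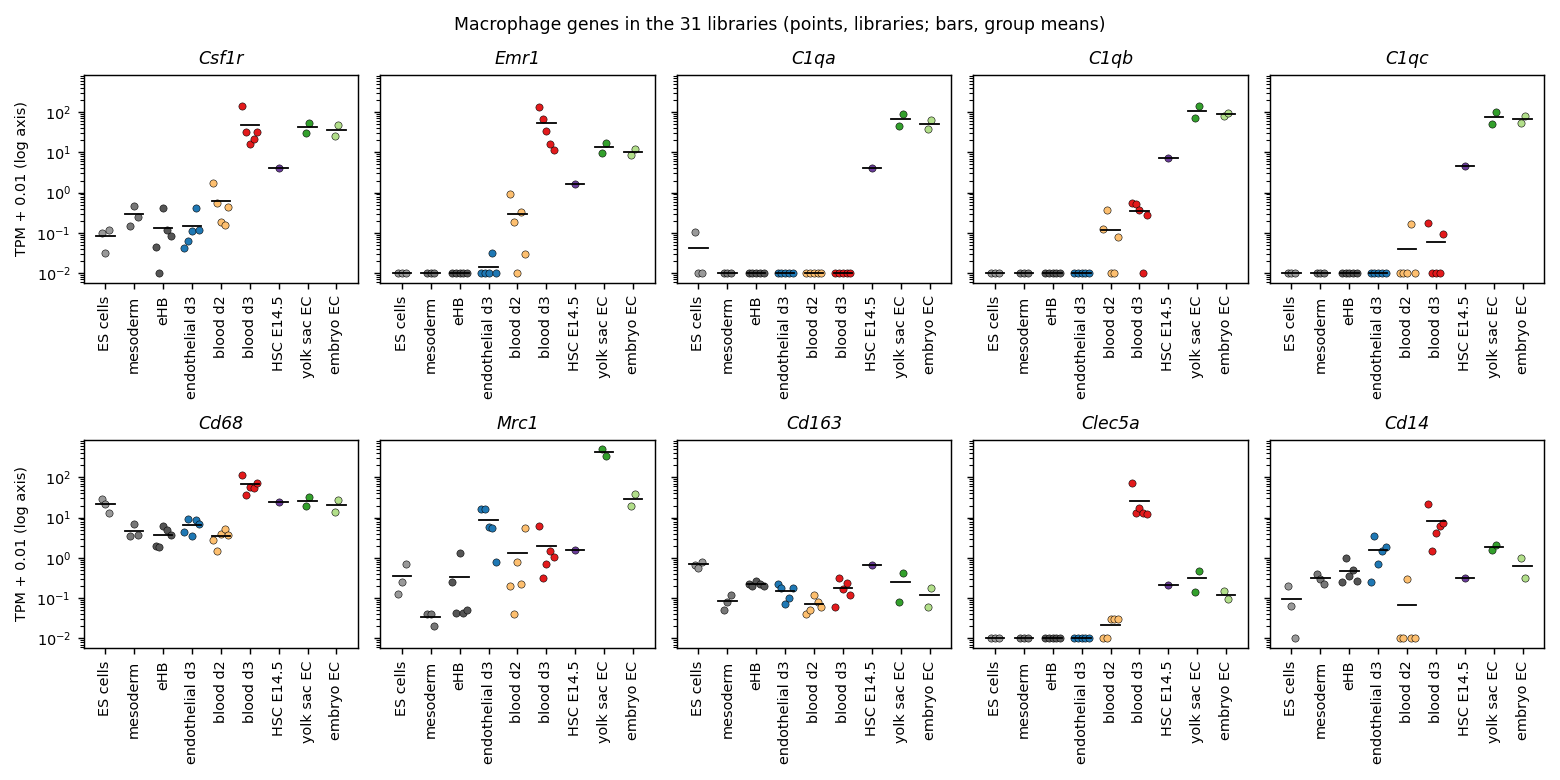
TPM + 0.01 (log axis) of each of the 10 genes in the 31 libraries, grouped along the horizontal axis; points are libraries and bars are group means. The C1q genes are high in yolk sac and embryo endothelium, Clec5a in day 3 blood, and Csf1r and Emr1 in both, while Cd163 is at most 0.804 TPM.

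In all, 6 comparisons were fitted over all genes with enough counts (edgeR's quasi-likelihood test, Benjamini-Hochberg adjustment, called at an adjusted p under 0.05). Between day 3 and day 2 blood 6 of the 10 genes were tested, and 5 were called, all higher on day 3: Csf1r, Emr1, Cd68, Clec5a and Cd14. Of the 12084 genes tested in that comparison 7.31% were called higher and 2.87% lower. The same 5 genes were the ones called higher in day 3 blood than in endothelial cultures, again among 6 tested, where 31.1% of 12655 genes were called higher and 30.2% lower. These 2 comparisons share the day 3 libraries. In primary endothelium over endothelial cultures 9 were tested and 7 called, all higher (Csf1r, Emr1, C1qa, C1qb, C1qc, Cd68 and Mrc1), beside 28.2% of 14356 genes called higher and 27.7% called lower. In day 3 blood over primary endothelium all 10 were tested, 4 were called higher (Emr1, Cd68, Clec5a and Cd14) and 4 lower (C1qa, C1qb, C1qc and Mrc1). The background there was 21.9% higher and 23.9% lower of 14269 genes. In yolk sac over embryo endothelium 8 were tested and 1, Mrc1, was called, higher, beside 15.9% of 13673 genes called higher and 8.54% called lower. A gene passes the count filter through the group where it is high, so the shares of tested genes that were called are not shares of the 10. The same holds for the gene lists below.

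In day 2 blood over eHB only Cd68 and Mrc1 could be tested by edgeR, and 0 were called (0 also at an unadjusted p under 0.05), beside 28.5% of 12269 genes called higher and 25.5% called lower. The other 8 were under the count filter. DESeq2, which tested more genes, called 2 higher, Csf1r (log2 fold change 3.13, adjusted p = 0.00918) and Emr1 (7.16, adjusted p = 0.000956). With the line as a replicate block, which also let more genes pass the filter, edgeR called the same 2 genes, Csf1r (3.18, adjusted p = 0.012) and Emr1 (6.84, adjusted p = 0.0203). Without the eHB library of M5, Mrc1 was called higher (4.47, adjusted p = 0.0301) together with Csf1r. In TPM these were small amounts: in day 2 blood Csf1r was at 1.68 (M5), 0.527 (FL4), 0.174 (FL10), 0.143 (RB3.6.5) and 0.439 (RB4.6.9), against 0 to 0.411 in eHB. Emr1 was listed at 0 in all 5 eHB, 3 ES and 3 mesoderm libraries and at 0 to 0.936 TPM in day 2 blood.

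Csf1r was abundant in day 3 blood and in both kinds of primary endothelium, and at or under 1.68 TPM in every cultured group before day 3 blood. In day 3 blood it was at 138.0 TPM in M5, 31.4 in FL4, 15.9 in FL10, 21.0 in RB3.6.5 and 32.5 in RB4.6.9. In yolk sac endothelium it was at 31.03 and 53.7 TPM, and in embryo endothelium at 26.04 and 46.8. The ranges of these 3 groups overlap one another, and the single HSC library, at 4.04 TPM, lies below all of them. Day 3 blood exceeded day 2 blood by 6.14 ± 1.00 on the log2 scale (SE, edgeR adjusted p = 0.0053), with no overlap between the groups. Without day 3 M5 the difference was 5.16, and without day 2 M5 it was 7.15, both still called. Primary endothelium exceeded the endothelial cultures (0.033 to 0.395 TPM) by 8.18 ± 0.62 (adjusted p = 3.37e-05). Without the FL10 culture, the highest of the 5, this difference was 9.02. Day 3 blood exceeded the same cultures by 8.86 ± 0.96 (adjusted p = 3.25e-05), which was 7.89 without day 3 M5 and 9.71 without the FL10 culture. Between day 3 blood and primary endothelium no difference in Csf1r was called (0.70 ± 0.65, adjusted p = 0.413), and it lay between -0.27 and 0.95 as each library was left out, with the lowest value without M5.

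Genes listed around CSF1R, among them ligand, transcription factor and other receptor genes, did not follow Csf1r as a block. Apart from Csf1r, 10 genes were on this list. Of the 7 tested, 4 were higher on day 3 than on day 2 (7.31% of all genes) and edgeR called none lower (2.87%). They included Spi1 (318 ± 103 against 47.7 ± 21.6 TPM, mean ± SD), the Fc receptor gene Fcgr1 and the GM-CSF receptor gene Csf2ra. Csf1 itself was at 8.84 ± 8.82 TPM in day 3 blood and 4.06 ± 3.78 in day 2 blood and was not called (adjusted p = 0.362). Between day 3 blood and primary endothelium 4 of 9 tested were higher and 2 lower, beside 21.9% and 23.9% of all genes. Spi1 was higher in blood (17.4 TPM on average in primary endothelium, log2 4.61 ± 0.30, adjusted p = 1.58e-05), as was Csf2rb, the shared receptor subunit for IL-3 and GM-CSF (567 against 6.61 TPM). Maf, a transcription factor gene, was among the lower, at 0.0538 TPM on average in day 3 blood and 71.9 in primary endothelium (log2 -9.22 ± 0.60, adjusted p = 1.66e-05). Maf was also at 51.3 TPM in the endothelial cultures, where Csf1r was at most 0.395.

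Emr1 encodes F4/80, an adhesion-type G-protein-coupled receptor used as a surface marker of mouse macrophages. Day 3 blood held 133.2 TPM in M5, 66.8 in FL4, 33.2 in FL10, 16.4 in RB3.6.5 and 11.4 in RB4.6.9. The 2 ES-derived lines were the lowest, and their range meets that of primary endothelium, at 9.50 and 17.4 TPM in yolk sac and 8.48 and 12.4 in embryo. Day 3 blood exceeded day 2 blood by 7.37 ± 1.25 on the log2 scale (edgeR adjusted p = 0.00616), which was 6.57 without day 3 M5 and 8.62 without day 2 M5. Against primary endothelium it was higher by 2.53 ± 0.73 (adjusted p = 0.0213), with overlapping ranges. That call was lost without any 1 of the 4 primary libraries (adjusted p from 0.055 to 0.0883). It was also lost in limma on log2(TPM + 1) (1.55, adjusted p = 0.0833), and without M5 the difference was 1.76 (adjusted p = 0.0275). In the endothelial cultures Emr1 had 1 count in all 5 libraries together, in FL10. Primary endothelium exceeded them 2751-fold by normalised counts (95% counting interval 493.1 to 108710) and day 3 blood 18008-fold (3231 to 711340), so these folds are bounded mainly from below. Without day 3 M5 the latter was 9382-fold (1683 to 370650), and without the FL10 culture, where no count remained, the folds were at least 751-fold and 4914-fold.

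The 3 C1q genes were abundant in primary endothelium and at or near 0 in blood made in culture. C1qa was at 44.5 and 92.1 TPM in yolk sac endothelium and at 38.8 and 62.4 in embryo endothelium, and was listed at 0 in all 5 day 3 blood libraries. C1qb was at 70.6 and 142.2 TPM in yolk sac and 78.7 and 97.3 in embryo, against 0.543 (M5), 0.509 (FL4), 0.365 (FL10), 0 (RB3.6.5) and 0.267 (RB4.6.9) in day 3 blood. C1qc was at 51.4 and 99.0 TPM in yolk sac and 52.3 and 80.4 in embryo, against 0.167 in M5, 0.082 in RB4.6.9 and 0 in the other 3 blood libraries. Every primary library lay above every blood library for all 3 genes. Day 3 blood was lower than primary endothelium in C1qb by a log2 fold change of -7.68 ± 0.47 (edgeR adjusted p = 1.3e-05) and in C1qc by one of -9.79 ± 0.65 (adjusted p = 1.8e-05), which was -10.85 without M5. For C1qa, with 0 counts in blood, it was at least 859-fold lower, taking a floor of 3 counts over the group (adjusted p = 0.000237), a limit that covers counting error only.

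C1q was also missing from the endothelial cultures. All 3 genes had 0 counts in the 5 cultures. Against these the 22 counts of C1qb in day 3 blood were under the filter of the edgeR fit, and C1qb was called higher by DESeq2 (adjusted p = 0.00149), without the filter (0.00432) and in the fit of all 31 libraries (0.000855), which also called C1qc (0.0359). Primary endothelium was at least 1542-fold higher in C1qa, 2660-fold in C1qb and 2108-fold in C1qc (edgeR adjusted p = 0.000134, 9.37e-05 and 9.96e-05). Within primary endothelium the 3 chains kept close proportions: C1qb was 1.54 to 2.03 times and C1qc 1.07 to 1.35 times C1qa in TPM over the 4 libraries. In the HSC library these ratios were 1.76 and 1.13, at lower levels (4.11, 7.24 and 4.64 TPM for C1qa, C1qb and C1qc). Yolk sac and embryo did not differ detectably in any chain (log2 0.43 ± 0.33, 0.25 ± 0.30 and 0.17 ± 0.30, adjusted p = 0.396, 0.599 and 0.732). Without yolk sac library 1, C1qa was called higher in yolk sac (0.89, adjusted p = 0.0271).

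Between day 3 blood and primary endothelium other complement genes did not divide as fully as C1q did. Of 20 listed, 18 were tested, 3 were higher and 7 lower in blood, beside 21.9% and 23.9% of all genes. The median log2 fold change was 0.081 against 0.016 over all genes tested. Cfp, the gene of properdin, a stabiliser of the alternative pathway, was higher in blood (187 ± 118 against 23.8 TPM on average, log2 3.38 ± 0.48, adjusted p = 0.000712). Primary endothelium exceeded endothelial cultures in 12 of 18 tested, with 1 lower, beside 28.2% and 27.7% of all genes. The median log2 fold change there was 2.17 against 0.014 over all genes. Of the 18, 10 were higher in yolk sac than in embryo, beside 15.9% of all genes. The 10 were led by C3, C2 and Cfb (log2 6.12 ± 0.34, 5.80 ± 0.42 and 5.22 ± 0.25). In the yolk sac libraries 8 visceral endoderm genes, of the epithelium that covers the yolk sac, summed to 10382 and 10818 TPM, with none at 0, against 5.28 and 11.3 in embryo. The 8 mesenchyme genes summed to 971.7 and 999.7 TPM in yolk sac and 44.8 and 54.6 in embryo. Whether these cells contributed to the yolk sac values was not tested.

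**Figure D2:**
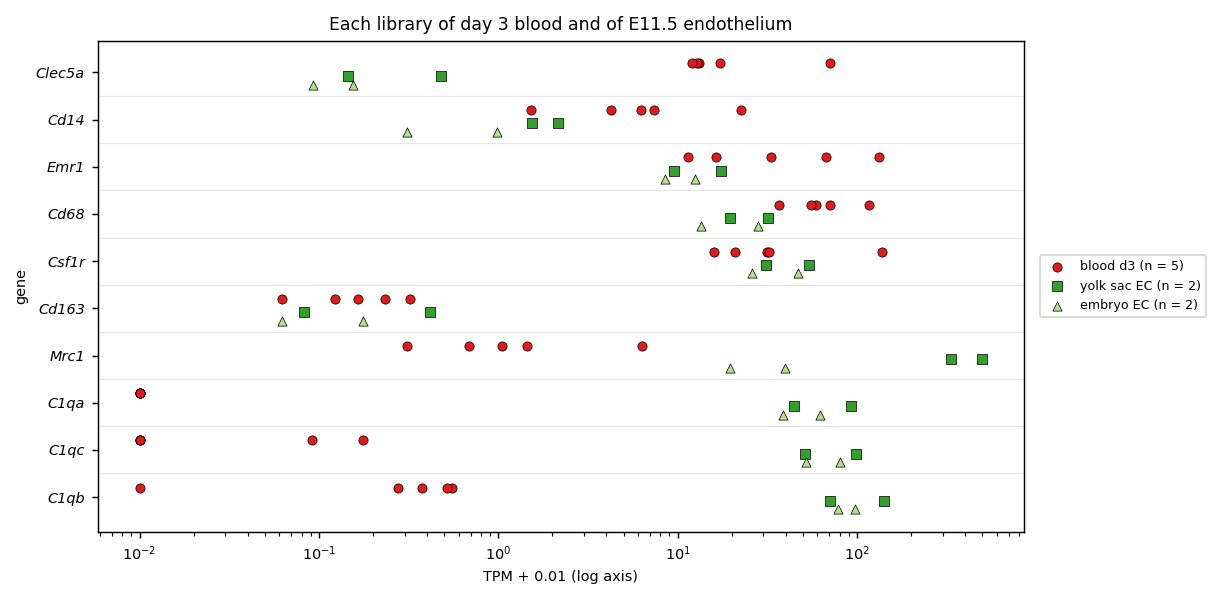
TPM + 0.01 (log axis) of each gene in every library of day 3 blood (circles, 5 libraries) and of endothelium from yolk sac (squares, 2) and embryo (triangles, 2). Clec5a is 12.1 TPM or more in blood and 0.469 or less in endothelium, the C1q genes show the opposite split, and Csf1r overlaps.

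Cd68 encodes macrosialin, a glycoprotein of lysosomes and endosomes that is abundant in phagocytes and present at lower levels elsewhere. It was detected in every one of the 31 libraries. The day 3 blood libraries held 116.2 TPM in M5, 36.6 in FL4, 59.0 in FL10, 55.4 in RB3.6.5 and 71.1 in RB4.6.9, above every library of every other group. ES cells held 12.9 to 29.6 TPM, which overlaps the levels in yolk sac (19.5 and 31.9), embryo (13.5 and 27.9) and HSC (24.5). The ordering of the middle groups is therefore not resolved, and by TMM-scaled counts 5 of the 9 groups kept their rank. Day 3 blood exceeded day 2 blood (1.51 to 5.25 TPM) by 4.25 ± 0.40 on the log2 scale (edgeR adjusted p = 0.000839) and primary endothelium by 1.99 ± 0.39 (adjusted p = 0.00358). Primary endothelium exceeded the endothelial cultures (3.54 to 9.08 TPM) by 1.78 ± 0.37 (adjusted p = 0.00375).

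Of 18 lysosome genes listed and tested, 4 were higher and none was called lower by edgeR in day 3 over day 2 blood, beside 7.31% of all genes called higher, with a median log2 fold change of 0.50 against -0.048 over all genes. Beside 21.9% of all genes called higher and 23.9% lower, 5 were higher in day 3 blood than in primary endothelium and 3 lower. Among them Cd63, a membrane protein of late endosomes, was at 933 TPM in blood and 221 in primary endothelium (log2 2.73 ± 0.27, adjusted p = 9.93e-05), and Ctsl, the gene of cathepsin L, was at 109.8 and 439 TPM (log2 -1.42 ± 0.31, adjusted p = 0.00594). Primary endothelium was lower than the endothelial cultures in 8 and higher in 3 of the 18, beside 27.7% and 28.2% of all genes. Ctss, the gene of cathepsin S, a protease of antigen-presenting cells, was among the 3, at 19.9 against 0.0124 TPM.

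Mrc1, the macrophage mannose receptor gene, was higher in primary endothelium than in day 3 blood. It was at 498.4 and 335.5 TPM in yolk sac endothelium, at 19.7 and 39.5 in embryo endothelium, and at 16.5 (RB3.6.5), 16.2 (RB4.6.9), 5.75 (FL4), 5.54 (FL10) and 0.763 (M5) in the endothelial cultures. In day 3 blood it was at 6.33 TPM in M5, 0.301 in FL4, 0.677 in FL10, 1.44 in RB3.6.5 and 1.04 in RB4.6.9. The yolk sac libraries stood above all others, and those of the embryo came next. Yolk sac exceeded embryo by 3.80 ± 0.32 on the log2 scale (edgeR adjusted p = 2.07e-05), in 2 of 2 libraries against 2, and by 3.46 to 4.22 as each library was left out. With all 31 libraries sharing 1 estimate of the spread the size was the same, but the adjusted p was 0.264.

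Day 3 blood was lower in Mrc1 than primary endothelium, with a log2 fold change of -5.35 ± 0.90 (edgeR adjusted p = 0.00174). Without M5 it was -6.57, against the embryo libraries alone -3.43 (adjusted p = 0.0359) and against the yolk sac libraries alone -7.27. DESeq2 gave no p for this gene here. Primary endothelium exceeded the endothelial cultures by 3.59 ± 0.75 (adjusted p = 0.00387). This rested on the yolk sac: it was 5.49 with yolk sac alone and 1.70, not called, with embryo alone (adjusted p = 0.15). Day 3 blood and day 2 blood did not differ detectably (0.69 ± 1.19, adjusted p = 0.755). That difference lay between -0.45 and 2.70 as each library was left out, so its direction was not settled. Against the endothelial cultures day 3 blood was at -1.75 ± 0.93 (adjusted p = 0.125). Blood was below the culture of the same line in 4 of 5 lines, and M5 went the other way, by 2.06 on the log2(TPM + 1) scale. The difference became a call, lower in blood, without M5 (-2.91, adjusted p = 0.0181) and in limma on log2(TPM + 1) (-1.64, adjusted p = 0.0442).

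Genes of scavenger endothelium moved with Mrc1 between yolk sac and embryo. Of 9 listed, 8 were tested, 5 were higher in yolk sac and 1, the lymphatic regulator Prox1, was lower. Of all genes 15.9% were called higher and 8.54% lower. Lyve1, a hyaluronan receptor gene, was at 1915 ± 169 against 90.8 ± 31.98 TPM (log2 4.38 ± 0.30, adjusted p = 4.98e-06). Stab2, a scavenger receptor gene, was at 1016 ± 308 against 50.1 ± 24.6 (log2 4.33 ± 0.38, adjusted p = 2.66e-05). Cd36, a receptor for lipids and for thrombospondin, was at 138 ± 17.4 against 13.4 TPM on average (log2 3.33 ± 0.20, adjusted p = 1.89e-06). The whole list summed to 3566 and 4591 TPM in yolk sac, 515.1 and 880.9 in embryo, 2338 to 3991 in endothelial cultures and 69.4 to 511.4 in day 3 blood. Cultures with Lyve1 at 1367 to 2802 TPM thus held Mrc1 at no more than 16.5. In day 2 blood the 1 library with Mrc1 above 1 TPM, RB4.6.9 (5.48), also had the most Cdh5 (384.6 TPM, others 12.7 to 121.4) and Stab2 (20.8, others 0.061 to 1.10). Residual endothelial cells as a source of that Mrc1 were not tested.

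Cd163, the haemoglobin scavenger receptor gene of mature tissue macrophages, was hardly detected. Its highest values were in ES cells (0.56 to 0.804 TPM) and in HSC (0.647), and it was at 0.052 to 0.312 in day 3 blood, 0.072 and 0.407 in yolk sac, and 0.052 and 0.165 in embryo. Neither edgeR comparison that tested it called a difference (day 3 blood over primary endothelium 0.54 ± 0.79, edgeR adjusted p = 0.606; primary endothelium over cultures 0.03 ± 0.67, adjusted p = 0.974). In day 2 blood it was at 0.031 to 0.113 TPM, below every eHB library (0.187 to 0.263). That difference was under the count filter and was called lower in the fit of all 31 libraries (log2 -1.30, adjusted p = 0.0376) and in 3 of the edgeR fits that left out 1 day 2 library, M5 (0.047), FL4 (0.0475) or RB3.6.5 (0.0443). At these depths changes of a few counts per library were not detectable.

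Clec5a, which encodes a C-type lectin of monocytes, macrophages and neutrophils that signals through DAP12, showed the opposite pattern to C1q. Its level in day 3 blood was 70.7 TPM in M5, 13.1 in FL4, 17.3 in FL10, 12.8 in RB3.6.5 and 12.1 in RB4.6.9. In primary endothelium it was at 0.135 and 0.469 TPM (yolk sac) and at 0.144 and 0.083 (embryo), and HSC held 0.205. Apart from M5 the blood lines lay within a narrow range, well above every other library. Day 3 blood exceeded primary endothelium by 7.02 ± 0.91 on the log2 scale (edgeR adjusted p = 0.000414), which was 6.04 without M5 and 7.59 without yolk sac library 2. Day 2 blood held 3 counts in 5 libraries, and day 3 exceeded it 1110-fold by normalised counts (95% counting interval 379.4 to 5385, adjusted p = 0.000839). Without day 3 M5, which held 2123 of the 3157 counts, the ratio was 501-fold (170.9 to 2433, adjusted p = 0.000159). In the endothelial cultures it had 0 counts, and day 3 blood was at least 1889-fold higher (adjusted p = 0.00023), or at least 853-fold without M5. The traces in primary endothelium, 32 counts in 4 libraries, were under the filter against the cultures, at least 16.3-fold higher by counts, and were called without that filter (adjusted p = 0.00917).

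Several genes grouped around CLEC5A and DAP12 signalling were higher in day 3 blood too. Of 11 genes of this signalling group in the tables, 9 were tested in day 3 over day 2 blood. Of these, 5 were higher, beside 7.31% of all genes. The median log2 fold change of the 9 was 1.74 against -0.048 over all genes. The 5 included Card9, a relay to NF-kB (66.1 ± 33.7 against 0.683 ± 0.231 TPM), Tyrobp, the DAP12 gene (1016 ± 606 against 35.6 ± 34.4), Trem1 and Fcer1g. Tyrobp and Fcer1g also stand in the wider macrophage list. Against primary endothelium 9 of 10 tested were higher in day 3 blood and 1 lower, beside 21.9% and 23.9% of all genes. The median there was 4.25. The lectin genes Clec4d (49.4 against 0.272 TPM, log2 8.06 ± 1.35) and Clec4e (14.48 against 0.913, log2 5.06 ± 0.84) were among the 9. Neutrophil genes were higher too, 13 of 13 tested, beside the same 21.9% of all genes. Their sum was 1498 to 28543 TPM in day 3 blood against 10.2 to 40.0 in primary endothelium. Each primary library had 5 of the 13 at 0, not always the same ones. Neutrophils also express Clec5a, and their part in its level was not tested.

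Cd14 encodes the lipopolysaccharide co-receptor of TLR4, displayed by monocytes and macrophages. Among day 3 blood libraries it was at 22.4 TPM in M5, 1.51 in FL4, 4.26 in FL10, 6.26 in RB3.6.5 and 7.37 in RB4.6.9. It was at 1.53 and 2.14 in yolk sac, 0.969 and 0.300 in embryo and 0.239 to 3.56 in the endothelial cultures. FL4 thus lay within the endothelial ranges while the other 4 blood lines lay above them. In day 2 blood it had counts only in FL10 (0.297 TPM), and day 3 exceeded day 2 by 6.99 ± 1.25 on the log2 scale (edgeR adjusted p = 0.00795). The difference was 6.09 without day 3 M5 and 10.13 without day 2 FL10. Day 3 blood exceeded the endothelial cultures by 2.80 ± 0.85 (adjusted p = 0.015), which was 2.04 without M5 (adjusted p = 0.0435). It exceeded primary endothelium by 3.35 ± 0.85 (adjusted p = 0.0118), which was 2.53 without M5 and 3.96 without embryo library 1. The call was lost without yolk sac library 1 (adjusted p = 0.0588) or embryo library 2 (0.0577). Primary endothelium and the cultures did not differ detectably (-0.55 ± 0.75, adjusted p = 0.558).

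A list of 14 genes of the TLR4 pathway and its relatives was followed beside Cd14. In day 3 over day 2 blood 13 were tested and 3 were higher, beside 7.31% of all genes. The 3 were Tlr2 (43.1 ± 48.3 against 1.91 ± 1.02 TPM, log2 4.49 ± 0.73, edgeR adjusted p = 0.00517), and Tirap and Irak4, both parts of the intracellular relay. Tlr4, the signalling receptor, was at 1.54 TPM on average in day 3 blood, 6.39 in primary endothelium and 24.6 in the endothelial cultures. It was lower in day 3 blood than in the cultures (log2 -3.53 ± 0.81, adjusted p = 0.00345), and lower in primary endothelium than in the cultures (log2 -1.97 ± 0.27, adjusted p = 0.000463). Against primary endothelium 7 of 14 were higher in day 3 blood and 4 lower, beside 21.9% and 23.9% of all genes. The median was 0.80 against 0.016.

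**Figure D3:**
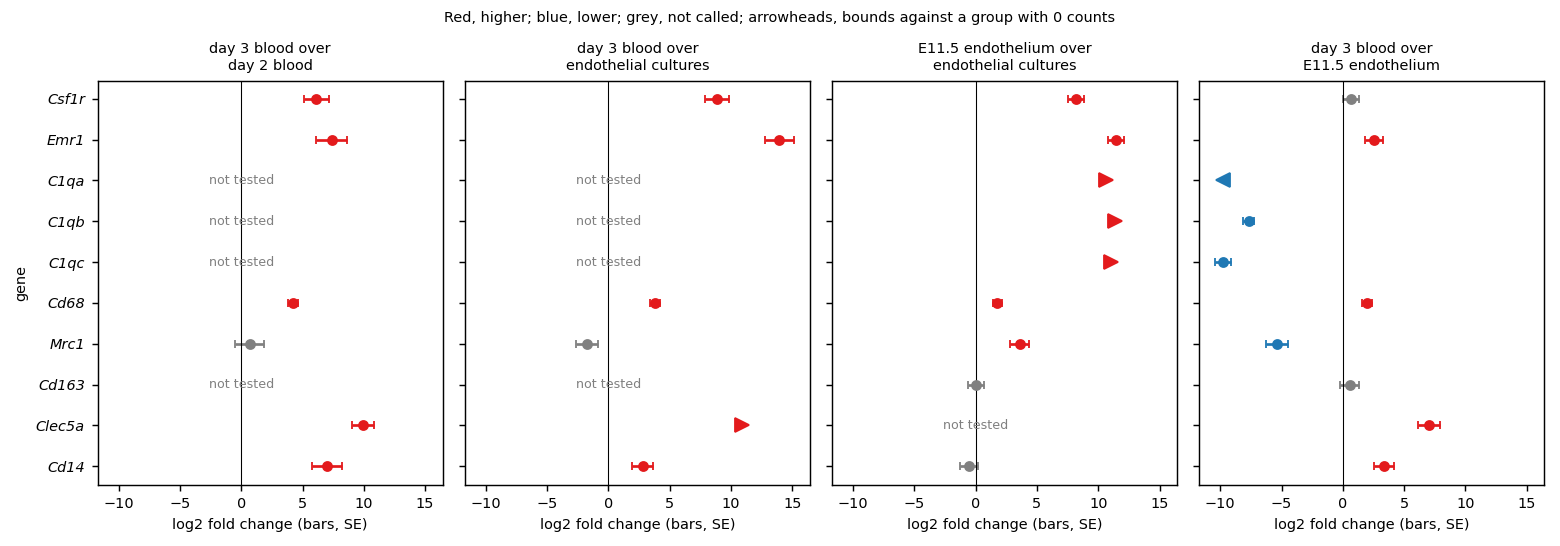
Log2 fold change (bars, SE) of the 10 genes in 4 comparisons from the edgeR fits. Red marks genes called higher, blue called lower and grey not called; arrowheads are bounds against a group with 0 counts, and the Emr1 values over endothelial cultures rest on 1 count there. Csf1r is high over day 2 blood and the cultures and is 0.70 between day 3 blood and primary endothelium.

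The mix of the genes, as well as their level, differed between the 2 settings. Per TPM of Csf1r, the 3 C1q genes together held 5.37 and 6.21 TPM in yolk sac, 6.52 and 5.13 in embryo, 3.95 in HSC and 0 to 0.023 in day 3 blood. Clec5a held 0.0018 to 0.0087 TPM per TPM of Csf1r in primary endothelium, 0.051 in HSC and 0.371 to 1.09 in day 3 blood. Emr1 held 0.266 to 0.326 in primary endothelium, a spread much narrower than the 0.352 to 2.13 of day 3 blood. Cd68 held 0.518 to 0.630 in primary endothelium and 0.842 to 3.72 in blood. Each of these 4 ratios separated all primary libraries from all blood libraries. The Mrc1 ratio did so too but did not hold steady within primary endothelium, at 16.1 and 6.25 in yolk sac and 0.755 and 0.845 in embryo. These ratios join members after their levels were known and carry no test. In bulk samples fewer cells of a type and less RNA per cell cannot be told apart.

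**Figure D4:**
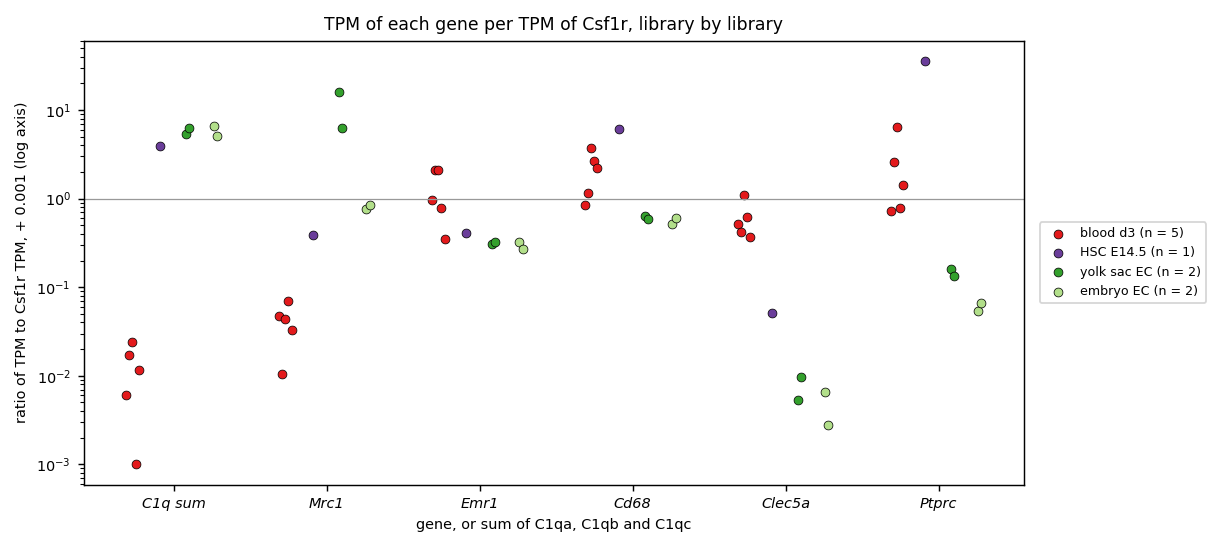
Ratio of each gene's TPM to that of Csf1r in the same library, + 0.001 on a log axis, for 5 libraries of day 3 blood, 1 of HSC, and 2 each of endothelium from yolk sac and from embryo. The C1q sum is 5.13 to 6.52 in primary endothelium and at most 0.023 in blood, and Clec5a is reversed.

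Leukocyte genes were low in primary endothelium, but not at 0. Ptprc, the CD45 gene, was at 4.92 and 7.10 TPM in yolk sac and 1.38 and 3.07 in embryo, at 0 to 0.031 in the endothelial cultures and at 16.4 to 101.6 in day 3 blood, which was sorted on its product. The 12 leukocyte genes summed to 672.7 to 800.7 TPM in primary endothelium, with none at 0, against 131.0 to 532.0 in the cultures and 5056 to 7217 in day 3 blood. Beside 28.2% of all genes called higher and 27.7% lower, 6 of the 12 were higher in primary endothelium than in the cultures and 1 was lower. The 8 erythroid genes summed to 5205 and 10456 TPM in yolk sac and 2349.8 and 28077 in embryo. Their sums were 18.4 to 1949 in the cultures and 331.2 to 11627 in day 3 blood. In primary endothelium over the cultures 1 of the 8 was called higher, beside the same 28.2% of all genes. The part of these cells in the member levels of primary endothelium was not tested.

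The wider macrophage list also split between the 2 settings. Of 40 genes outside the 10, 36 were tested in primary endothelium over the cultures, 29 were higher and 1 lower. Beside this, 28.2% of all genes were called higher and 27.7% lower. The list had a median log2 fold change of 4.61 against 0.014 over all genes. Of 23 tested in day 3 over day 2 blood, 17 were higher and 1 lower, beside 7.31% and 2.87% of all genes. The list median was 4.49 against -0.048. Between day 3 blood and primary endothelium the 37 tested were divided: 12 were higher in blood, 14 lower and 11 not called. Of all genes 21.9% were called higher and 23.9% lower there, and the list median was -0.0051 against 0.016. Timd4, a phosphatidylserine receptor gene of resident macrophages, had 0 counts in day 3 blood and 8.64 TPM in primary endothelium (at least 253.9-fold lower in blood, edgeR adjusted p = 0.000536). Cd5l, a macrophage-secreted scavenger protein gene, also had 0 counts in blood and 6.16 TPM in primary endothelium (at least 165.2-fold lower, adjusted p = 0.00166). Lyz2, the lysozyme gene of myeloid cells, rose over the endothelial cultures to 2885 TPM on average in day 3 blood (log2 10.23 ± 1.29, adjusted p = 8.56e-05). Itgam, the CD11b gene, was at 43.0 TPM there against 0.332 in day 2 blood (log2 6.90 ± 0.55, adjusted p = 0.000464).

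**Figure D5:**
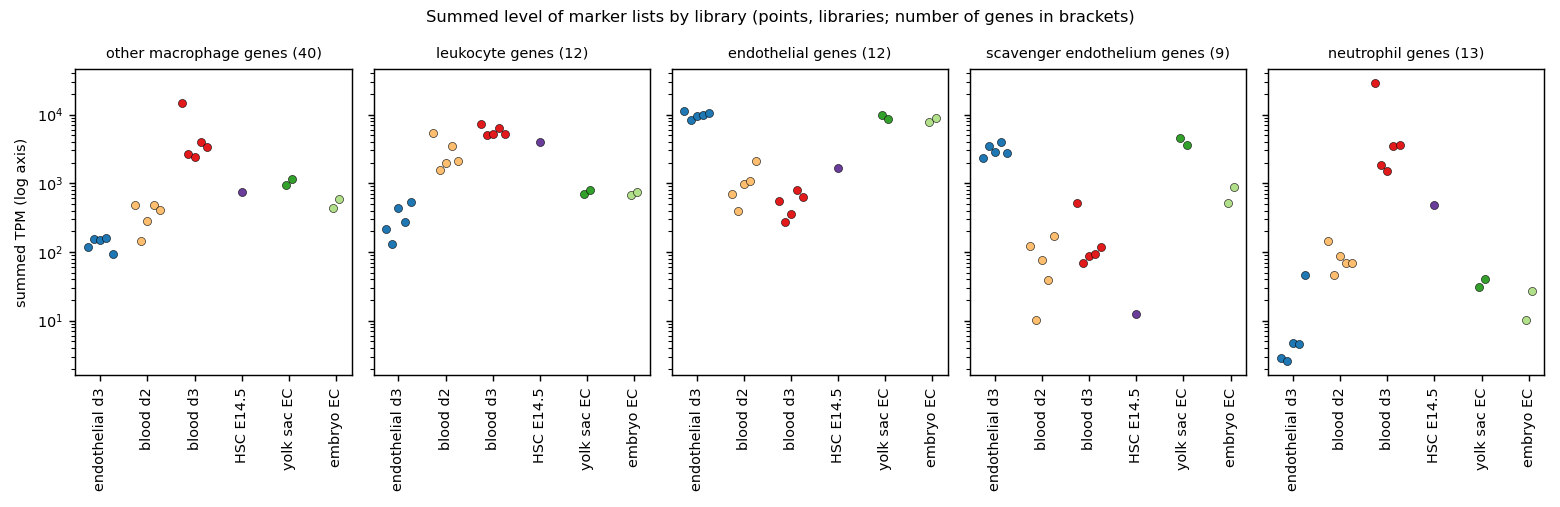
Summed TPM (log axis) of 5 marker lists by library in endothelial cultures, day 2 and day 3 blood, HSC, and yolk sac and embryo endothelium; points are libraries and the number of genes stands in brackets. Day 3 blood of M5 is the highest point for other macrophage genes (14493) and neutrophil genes (28543).

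The genes whose pattern over the 31 libraries was most like each member's are given as a description only. Likeness was Pearson's r of log2(TPM + 1) among 12365 genes. The libraries share lines and groups and differ in depth. For C1qa, C1qb and C1qc the nearest gene outside the 10 was Fcna, the ficolin A gene (r = 0.996, 0.996 and 0.996), at 44.8 TPM in yolk sac, 41.2 in embryo and 0.158 in day 3 blood, followed by Timd4 (r = 0.995, 0.991 and 0.996). Csf1r and Emr1 were nearest to Fcgr4, an Fc receptor gene (r = 0.958 and 0.962), and Hk3, a hexokinase gene of myeloid cells (r = 0.951 and 0.965), and to each other at r = 0.958. Mrc1 was nearest to Cd36 (r = 0.963) and Clec14a, an endothelial lectin gene (r = 0.95), at 584 TPM in yolk sac and 125 in embryo. Clec5a was nearest to the chemokine receptor gene Ccr1 (r = 0.991), Bcl2a1a (r = 0.99) and Clec12a (r = 0.989). Cd68 was nearest to Cfp (r = 0.926), Cd14 to Alas1 (r = 0.869), and Cd163, at its low levels, to Nrg4 (r = 0.918).

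The HSC library held C1q transcripts at a lower level than primary endothelium. Csf1r was at 4.04 TPM, Emr1 at 1.67, C1qb at 7.24, Cd68 at 24.5, Mrc1 at 1.55, Clec5a at 0.205 and Cd14 at 0.313, with Ptprc at 144.9. The 3 C1q genes, and Cd163 at a low level (0.647 TPM), were above every day 3 blood library. Csf1r, Emr1, Cd68, Clec5a and Cd14 were below every one, and Mrc1 lay within the range of those libraries. With 1 HSC library there is no replicate check, and no test was made.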

How the data were processed

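RNA was extracted with Trizol and RNeasy columns and made into libraries with the TruSeq kit v2, per the labels' protocols. CASAVA 1.8.2, Bowtie 0.12.9, RSEM 1.2.3 and mouse build mm10 are named in the submitters' processing notes, and the strand setting is not given in the sources used here. The authors deposited 1 table of expected counts and 1 of TPM values, each for 20314 genes in 31 libraries; how the TPM were renormalised is not described. The TPM header held 1 more name than columns, and each of the 31 columns matched its own count column most closely. No sample columns were left unused.

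Expected counts were rounded to whole numbers and compared by the quasi-likelihood test of edgeR 4.0.16 (R 4.3.3; TMM scaling, filterByExpr, Benjamini-Hochberg adjustment over all genes tested, threshold 0.05), and the scripts were tested on simulated data. DESeq2 1.42.0 and limma 3.58.1 on log2(TPM + 1) or log2(TPM + 0.1) were alternatives, with other filters, 1 fit of all libraries, a replicate block, and each library left out. Standard errors come from unshrunk fold changes, and values under alternatives from edgeR's slightly shrunk ones. Folds against 0 counts use a floor of 3 counts over the group, and counting intervals (95%) cover counting error only.

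The genes and lists were chosen with earlier results of these data known. From each list up to 4 called genes per comparison were named, by the size of change among those with a mean of 5 TPM or more, and 3 genes per member by likeness; Cdh5, Ptprc, Csf1 and other markers are given as values beside a result. The fits reported first have no block; the line as a block was an alternative, since libraries of the same line share their source. Their deviations from the group means correlated at 0.093 to 0.691 between day 3 and day 2 blood, 0.184 to 0.335 between day 2 blood and eHB, and 0.053 to 0.322 between day 3 blood and endothelial cultures. In 48 pairs of libraries within groups a chi-square averaged over genes came to between 4.16 and 568, so no pair was counted as 1 library. Some genes that the naming rule picked are not reported here.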

Additional observations from a re-analysis of the deposited data

Results flagged for a closer look

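In 12 of 29 sets of 5 libraries, 1 library lay far from the other 4. The gap to its nearest neighbour was more than 0.71 of the whole range. For normally distributed values chance gives this in about 1 in 20 sets. The values here are TPM, many near 0, and 1 library with any count beside 4 at 0 is always flagged. Emr1 in the endothelial cultures and C1qc and Cd14 in day 2 blood were such sets. The 12 flags therefore cannot be set against that rate. In day 3 blood the library of line M5 was far above the rest for Csf1r (138.0 TPM), Clec5a (70.7), Cd14 (22.4) and Mrc1 (6.33). M5 also stood apart for Csf1r in day 2 blood (1.68 TPM) and for Csf1r (0.411) and Mrc1 (1.33) in eHB. FL10 stood apart for Csf1r (0.395 TPM) and Emr1 (0.021) in the endothelial cultures and for Cd14 (0.297) in day 2 blood. In day 2 blood RB4.6.9 stood apart for Mrc1 (5.48 TPM) and RB3.6.5 for C1qc (0.153). Several of these sets share a library, so they are not independent.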

How the results depend on the processing

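Of the values for single genes of the 10, 627 kept their side of the threshold under the alternatives, 13 lost a call and 5 gained one. No called value among them changed direction. These counts hold for genes that edgeR tested, and alternatives made 28 more calls on genes that were under its count filter. Values that were not called could change direction and still count among the 627. Csf1r in day 3 blood over primary endothelium did so, from 0.70 to -0.27 with 1 library left out. For day 2 blood over eHB, 2 of the 10 were called higher by DESeq2, 3 without the low-count filter, 3 in 1 fit of all 31 libraries (which also called 1 lower) and 2 with the line as a replicate block. For day 3 blood over endothelial cultures limma called 1 lower (1 also with a pseudocount of 0.1). C1qb was called higher there by DESeq2, without the filter and in the fit of all libraries, and C1qc in the last. Against yolk sac alone 2 rather than 4 were higher in day 3 blood, and the fit of all 31 libraries called 0 higher in yolk sac over embryo. The HSC to day 3 blood difference in Mrc1 was 0.089 by TPM and -0.28 by TMM-scaled counts. The cause was not tested.

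Counts over all genes moved more. Day 3 over day 2 blood gave 883 higher and 347 lower, against 1520 and 1135 by DESeq2, 1759 and 1915 in the fit of all libraries, and 163 or 161 lower by limma (pseudocount 1 or 0.1). Day 2 blood over eHB gave 3498 higher and 3134 lower, against 1530 or 1521 higher and 5657 or 5637 lower by limma and 4793 lower in the fit of all libraries. Day 3 blood over cultures gave 3932 higher, against 2266 or 2263 by limma. Day 3 blood over primary endothelium gave 3125 higher and 3414 lower, against 1612 or 1647 higher by limma, 1925 higher and 2260 lower with embryo alone, and 2033 higher with yolk sac alone. Yolk sac over embryo gave 2175 higher and 1168 lower, against 468 and 122 in the fit of all libraries. On the TPM scale (limma) the median log2 fold change of all genes was -0.61 for day 2 blood over eHB, -0.38 for day 3 blood over cultures and -0.40 for day 3 blood over primary endothelium. The share of calls that were higher was then 21.3%, 31.6% and 24.8%, against 52.7%, 50.7% and 47.8% by edgeR. For day 3 over day 2 blood this share was 71.8% by edgeR, 57.2% by DESeq2, 80.8% by limma and 47.9% in the fit of all libraries, and for yolk sac over embryo it was 65.1% by edgeR and 79.3% in that fit.

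Leaving out 1 library gave these ranges for genes called higher and lower: 554 to 1151 and 103 to 779 (day 3 over day 2 blood), 3165 to 3516 and 2632 to 3256 (day 2 blood over eHB), 3693 to 4318 and 3530 to 4320 (day 3 blood over cultures), 3409 to 4155 and 3198 to 4076 (primary endothelium over cultures), 2139 to 3835 and 2631 to 4107 (day 3 blood over primary endothelium), and 1675 to 2389 and 716 to 1860 (yolk sac over embryo). Of the 10, the counts higher were 5 to 5, 0 to 2, 5 to 5, 7 to 8, 2 to 4 and 1 to 2 in that order, and the counts lower 0 to 0, 0 to 1, 0 to 1, 0 to 0, 4 to 4 and 0 to 0. For day 3 over day 2 blood the genes higher were 554 without day 3 M5 and 574 without day 3 FL10. The genes lower there were 103 without day 3 M5, 123 without FL4, 107 without FL10, 779 without RB3.6.5 and 156 without RB4.6.9, and 209 without day 2 FL4, 138 without RB3.6.5 and 207 without RB4.6.9. For yolk sac over embryo the genes lower were 716 without yolk sac library 1, 737 without yolk sac library 2 and 1860 without embryo library 2. A lone yolk sac or embryo library is then assumed to vary like the other groups.

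With the line as a replicate block, 992 genes were higher and 430 lower in day 3 over day 2 blood, 3707 and 3394 in day 2 blood over eHB, and 3992 and 4093 in day 3 blood over cultures, with 5 of the 10 called in the first and the last. For yolk sac and embryo the shared numbers do not establish pairing (correlation of deviations -0.263): a replicate block by number gave 2011 higher and 963 lower, and crossed numbers, chosen after seeing the data, gave 2907 and 2232, with 1 of the 10 called by number.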
